A study of Mus musculus with 8 samples.

Results

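The genes described are 10 serine protease inhibitors of the serpin A clade on mouse chromosome 12, the *Serpina1* copies *Serpina1a* to *Serpina1e*, the *Serpina3* members *Serpina3c*, *Serpina3k*, *Serpina3m* and *Serpina3n*, and *Serpina6*. They were taken by symbol through their Ensembl identifiers in the GENCODE M21 annotation of GRCm38, and they are 10 of 45706 identifiers in the count table. They lie between 103646630 and 104414329 on chromosome 12, *Serpina6*, the *Serpina1* copies and *Serpina3c* on the minus strand and the others on the plus strand, with *Serpina1d* (103763594 to 103773592) inside the span of *Serpina1b* (103728156 to 103830373). Liver RNA was sequenced from 8 male mice whose strain is labelled C56B6/J. Of these, 4 received an AAV carrying a mirE/shRNA against *Srsf10* (genotype label Srsf10KD, here *Srsf10-kd*) and 4 received the control AAV (genotype label WT, here *Ctrl*). Injection was at 6 weeks of age in both groups, and 4 weeks later a high-fat diet (60% of its calories as fat) began that lasted 12 weeks, so no liver on a standard diet was compared. The vector was AAV2/8, which infects mainly liver, and the hairpin was under a chicken beta-actin promoter that is active in many cell types.

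Serpins inhibit proteases by offering an exposed reactive centre loop as bait. The protease cuts the loop, which then inserts into the body of the serpin and traps the enzyme. Hepatocytes secrete most of the serpins in blood. Human alpha-1-antitrypsin, which protects the lung from neutrophil elastase, is the product of a single gene, whereas this mouse strain carries several copies of it, *Serpina1a* to *Serpina1e*. The *Serpina3* group is the mouse expansion of alpha-1-antichymotrypsin, and *Serpina6* encodes corticosteroid-binding globulin, a serpin that carries glucocorticoids in blood and does not inhibit a protease.

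Each library held 50456404 to 59697241 reads counted on genes. Levels are CPM, counts per 1000000 reads after TMM scaling. The livers expressed 9 of 9 hepatocyte markers found in the table, whose summed level was 103073 to 120206 CPM in *Srsf10-kd* and 88392 to 115310 CPM in *Ctrl*. The neutrophil markers summed to at most 1.66 CPM in any liver, with *Ly6g*, *Mpo*, *Elane* and *Ngp* at 0 in at least 1 liver. *Srsf10*, the gene the hairpin targets, had 36.4 ± 3.24 CPM (SD, n = 4) under the *Srsf10-kd* label and 32.9 ± 1.99 CPM (SD, n = 4) in *Ctrl*, so it did not show the knockdown and *Srsf10-kd* here names a label. Acinar pancreas markers summed to 23.4 to 318 CPM in *Srsf10-kd* and 14.6 to 24.0 CPM in *Ctrl*, the highest in *Srsf10-kd* 2, and cholangiocyte markers to 46.9 to 69.2 CPM against 31.8 to 39.3 CPM. Their part in the results was not tested.

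The reactive centre loop meets the protease, and the copies differed there more often per residue than over the rest of the protein. The coding bases of this window are shown because of that role, although most of the positions that vary lie outside it. All lie in the last of 5 exons of the transcript used for each gene (GRCm38, GENCODE M21). They run 5′ to 3′ along the transcript and start at the codon that opens the hinge. In the *Serpina1* copies the capitals mark the 15 of 72 bases at which the 5 copies are not all the same.

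*Serpina1a* (chr12:103853765-103853836, minus strand): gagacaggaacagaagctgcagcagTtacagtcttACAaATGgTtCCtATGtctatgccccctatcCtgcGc
*Serpina1b* (chr12:103728332-103728403, minus strand): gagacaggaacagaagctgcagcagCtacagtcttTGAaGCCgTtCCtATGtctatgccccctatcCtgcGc
*Serpina1c* (chr12:103895102-103895173, minus strand): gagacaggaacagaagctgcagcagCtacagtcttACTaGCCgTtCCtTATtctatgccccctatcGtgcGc
*Serpina1d* (chr12:103763770-103763841, minus strand): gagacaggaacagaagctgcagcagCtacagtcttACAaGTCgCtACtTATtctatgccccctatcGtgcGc
*Serpina1e* (chr12:103947108-103947179, minus strand): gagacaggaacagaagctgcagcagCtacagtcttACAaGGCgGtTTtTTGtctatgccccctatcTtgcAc

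In the remaining genes the first 30 bases, the hinge, are in lower case and the stretch after it is in capitals. In serpins that inhibit proteases, which *Serpina6* does not, this stretch includes the residue that faces the protease.

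*Serpina3c* (chr12:104147322-104147393, minus strand): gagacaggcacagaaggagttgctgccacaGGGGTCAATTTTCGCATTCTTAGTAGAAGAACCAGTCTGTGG
*Serpina3k* (chr12:104345263-104345337, plus strand): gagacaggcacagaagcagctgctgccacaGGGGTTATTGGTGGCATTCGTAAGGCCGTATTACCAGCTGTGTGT
*Serpina3m* (chr12:104393763-104393843, plus strand): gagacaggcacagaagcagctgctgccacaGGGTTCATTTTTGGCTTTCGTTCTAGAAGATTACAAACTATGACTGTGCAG
*Serpina3n* (chr12:104413442-104413522, plus strand): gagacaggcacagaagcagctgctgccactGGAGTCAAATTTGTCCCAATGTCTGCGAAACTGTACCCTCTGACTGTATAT
*Serpina6* (chr12:103646930-103647001, minus strand): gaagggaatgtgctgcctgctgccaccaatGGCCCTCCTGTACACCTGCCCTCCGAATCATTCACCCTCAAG

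Translated, 9 of 24 residues of the *Serpina1* window varied among the copies (37.5%), against 38 of 389 residues outside it (9.77%). Whole *Serpina1* proteins were 92.7% to 97.3% identical in pairs, the window 70.8% to 83.3%. *Serpina1a* and *Serpina1b* differed at 4 residues of the window, *Serpina1b* and *Serpina1e* at 7. The *Serpina3* members were further apart, with 72.1% to 83.6% identity over the protein and 46.4% to 59.3% in the window. *Serpina6* was 37.3% to 40.3% identical to the other members over the protein.

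The same likeness limits how far reads can be told apart. STAR's gene counting leaves out reads that map to several places, so each transcript was cut into all its stretches of 75 bases, the read length, and each stretch was looked up in the transcripts of all other genes. Of the stretches of *Serpina1c*, 73.6% also occurred in another gene, and of those of *Serpina1a* 49.3%, with 809 stretches common to both. The share was 37.1% for *Serpina1d*, 19.7% for *Serpina1e* and 19.0% for *Serpina1b*. It was 9.65% for *Serpina3m*, 7.36% for *Serpina3k*, 1.46% for *Serpina3n*, 0.327% for *Serpina3c* and 0% for *Serpina6*. Counts of *Serpina1a* and *Serpina1c*, with the largest shares of the 10, are uncertain for this reason. *Serpina1c* also overlaps an antisense gene, *B430119L08Rik*, over 429 exon bases. The lookup covered both strands, and 262 stretches of *Serpina1c* were also found in this gene. A read from the overlap can have a single place in the genome, so 73.6% can overstate what the counting leaves out. *Serpina3k* and *Serpina3m* share an annotated exon of 60 bases, and the strand setting of the counting is not stated.

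**Figure D1:**
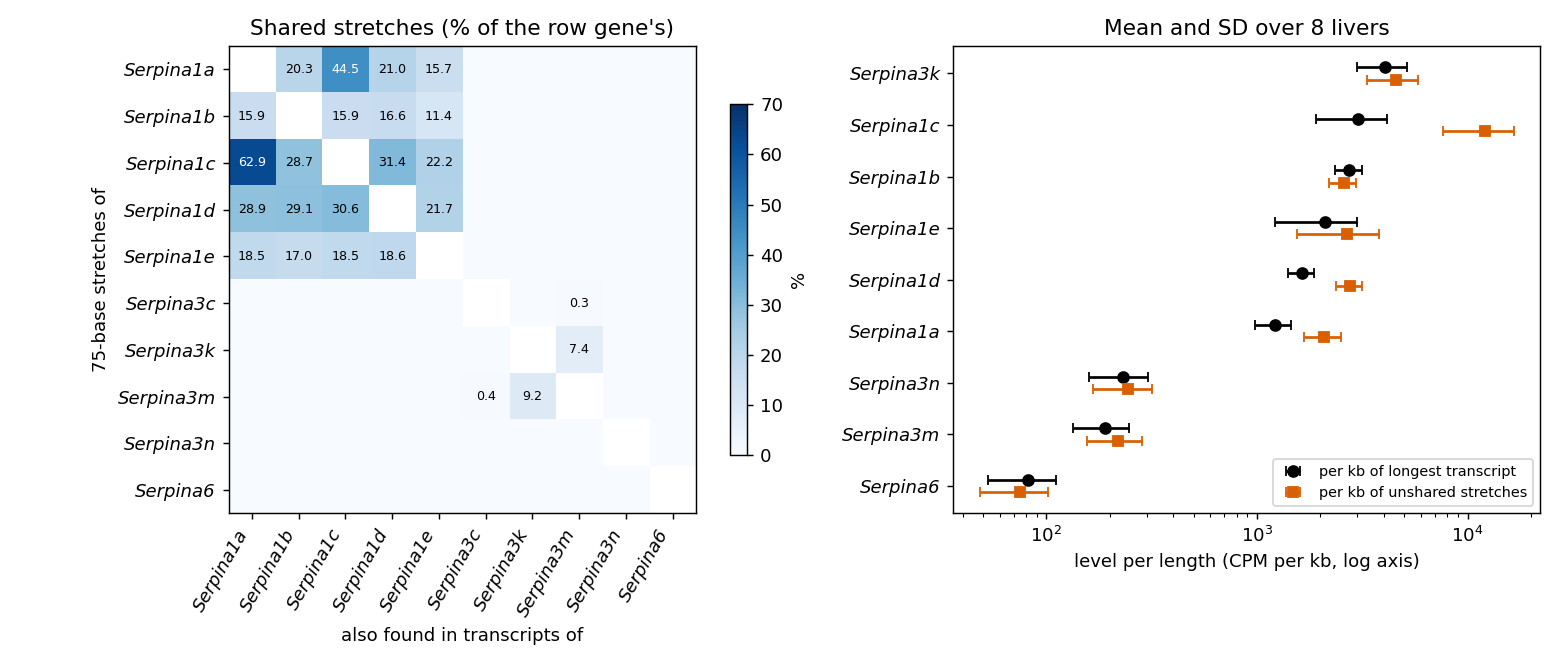
Left, share of each row gene's 75-base stretches (%) that also occur in transcripts of the column gene. Right, level per length (CPM per kb, log axis) as mean and SD over 8 livers, per kb of the longest transcript (circles) and per kb of stretches found in no other gene (squares), with *Serpina3c* left out for its low level. *Serpina1c* shares 62.9% of its stretches with *Serpina1a*, and its level per length moves most between the scales, from 3024 to 12105 CPM per kb.

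Levels can be ordered between genes only per length. Per kb of the longest transcript, *Serpina3k* was the highest with 4072 ± 1104 CPM per kb (SD, n = 8 livers), which ranked 16 among 15429 genes. *Serpina1c* followed at 3024 ± 1115 CPM per kb and *Serpina1b* at 2746 ± 395 CPM per kb, and these neighbours were not apart in every liver, since *Serpina1c* was above *Serpina1b* in 6 of 8. *Serpina1e* (2098 ± 879 CPM per kb) was above *Serpina1d* (1642 ± 231 CPM per kb) in 5 of 8 livers, so their order is not separated either. *Serpina1d* was above *Serpina1a* (1218 ± 238 CPM per kb) in 8 of 8 livers. The remaining genes were much lower, with *Serpina3n* at 231 ± 72.2, *Serpina3m* at 190 ± 55.7, *Serpina6* at 81.8 ± 29.1 and *Serpina3c* at 0.150 ± 0.0292 CPM per kb. Thus the *Serpina1* copies and *Serpina3k* sat among the 55 highest genes per length, and *Serpina3c* at rank 14100.

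Per kb of unshared sequence, *Serpina1c* came first with 12105 ± 4464 CPM per kb, above *Serpina3k* (4560 ± 1236 CPM per kb) in 8 of 8 livers. *Serpina1d* (2758 ± 388), *Serpina1e* (2666 ± 1118) and *Serpina1b* (2578 ± 371 CPM per kb) were then within the spread between livers. Neither scale is exact, because a read pair with one mate in unshared sequence can still be placed. Stretches of *Serpina1c* found in its overlapping antisense gene counted as shared, which can shorten its unshared length and raise its level on this scale. The unshared stretches were also counted over all annotated transcripts of a gene, not the longest alone. Their length thus exceeded the longest transcript for *Serpina1b* (1.877 against 1.762 kb) and *Serpina6* (1.753 against 1.605 kb). Part of a move between the scales can come from this. The order among *Serpina1* copies is uncertain for these reasons, while a comparison of the same gene between livers does not depend on the length used.

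No member passed the test for a difference between the groups. Tested in edgeR by quasi-likelihood (two-sided, p-values adjusted by Benjamini-Hochberg over 15491 genes), 0 of 10 members had an adjusted p under 0.05, beside 0.071% of all genes lower and 0.0% higher. At an unadjusted p under 0.05 the members were again 0 of 10, beside 21.8% of all genes. DESeq2 called 0 of 10 members, beside 5.27% of the genes it tested, and limma-voom with quality weights also 0. Leaving out any 1 of the 8 livers in edgeR called 0 of 10 as well. In bulk liver, fewer cells of a type and less RNA per cell cannot be told apart. The values of the 4 *Srsf10-kd* and the 4 *Ctrl* livers overlapped for all 10 members. Over all genes tested the share without overlap was 14.3%, and 10 genes are too few to be told apart from it. The median log2 fold change of the members was 0.08, beside 0.01 over all genes, with 6 members above 0 and 4 below. A trend on transcript length ran through the comparison, as genes with transcripts of 1361 to 2213 bases, the range of the members, had a median of 0.16 and genes over 5000 bases -0.25. After this trend was removed from each library the members' median was -0.08.

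**Figure D2:**
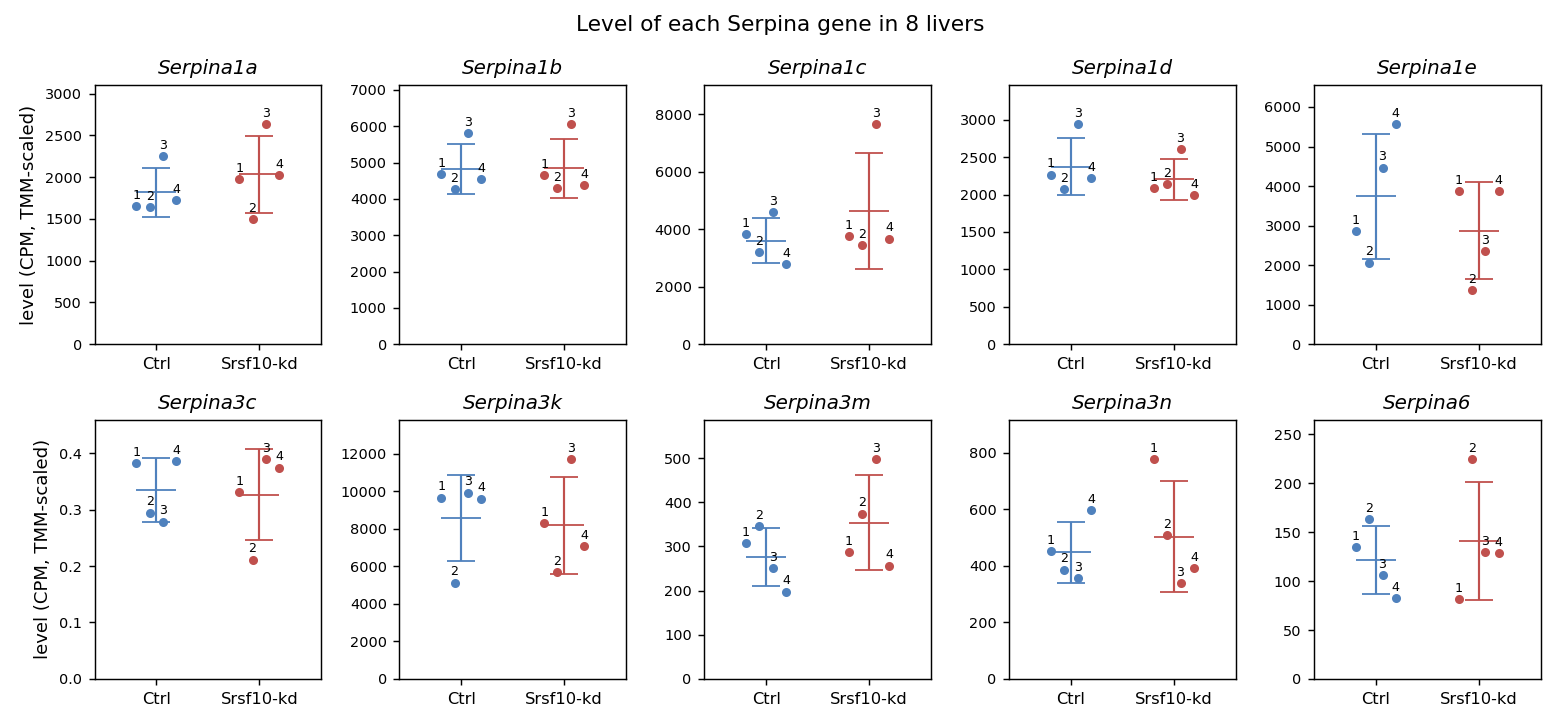
Level of each gene (CPM after TMM scaling, linear axis from 0) in the 4 *Ctrl* and 4 *Srsf10-kd* livers. Points are livers, numbered as in the labels, and lines are the group mean with its SD. The groups overlap in every panel, and *Srsf10-kd* 3 is the highest liver for 6 genes.

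*Serpina1b* was the copy with the log2 fold change nearest to 0. Its levels were 4658, 4305, 6050 and 4385 CPM in *Srsf10-kd* 1 to 4, and 4675, 4261, 5817 and 4555 CPM in *Ctrl* 1 to 4. Liver 3 was the highest of each group, and the 6 others lay between 4261 and 4675 CPM. The log2 fold change was 0.01 (95% interval -0.36 to 0.37, adjusted p = 0.984 in edgeR).

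*Serpina1d* had 2086, 2138, 2608 and 1991 CPM in *Srsf10-kd* and 2268, 2070, 2936 and 2219 CPM in *Ctrl*. Liver 3 was again the highest of each group. Its log2 fold change was -0.11 (95% interval -0.44 to 0.23, adjusted p = 0.683 in edgeR).

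*Serpina1a* had 1977, 1498, 2630 and 2024 CPM in *Srsf10-kd* and 1651, 1643, 2255 and 1728 CPM in *Ctrl*. In *Srsf10-kd* it had both the lowest liver, number 2, and the highest, number 3. The group difference was 0.16 on the log2 scale (95% interval -0.25 to 0.57, adjusted p = 0.608 in edgeR), and -0.03 after the length correction.

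*Serpina1c* stood apart in a single liver. It had 3763, 3441, 7640 and 3671 CPM in *Srsf10-kd*, and 3829, 3215, 4594 and 2772 CPM in *Ctrl*. The 3 other *Srsf10-kd* livers lay within the range of *Ctrl*. The log2 fold change of 0.36 (95% interval -0.25 to 0.98, adjusted p = 0.433 in edgeR) fell to 0.01 without *Srsf10-kd* 3 (adjusted p = 0.983).

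*Serpina1e* varied most. It had 3876, 1374, 2363 and 3867 CPM in *Srsf10-kd* and 2858, 2066, 4468 and 5558 CPM in *Ctrl*, a 4.05-fold range over 8 livers. Liver 2 was the lowest in both groups. Between groups the log2 fold change was -0.38 (95% interval -1.22 to 0.46, adjusted p = 0.543 in edgeR), and 0.12 with the quality weights of voom, so no direction can be given.

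Reads common to several copies are missing from the sum over the 5 copies too, in shares that differ by copy. The sum was 16360, 12755, 21291 and 15938 CPM in *Srsf10-kd* and 15281, 13255, 20070 and 16832 CPM in *Ctrl*, which is 1.32% to 2.0% of all counts. The group means were 16586 ± 3525 CPM and 16359 ± 2875 CPM (SD, n = 4 each), a ratio of 1.01. The sum spanned 1.67-fold over the livers. This was less than *Serpina1a* (1.76-fold), *Serpina1c* (2.76-fold) or *Serpina1e* (4.05-fold) alone, but more than *Serpina1b* (1.42-fold) or *Serpina1d* (1.47-fold).

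Within the sum, the makeup shifted from liver to liver. *Serpina1a* gave 10.3% to 12.7% of the *Serpina1* counts, *Serpina1b* 27.1% to 33.7% and *Serpina1d* 12.2% to 16.8%. *Serpina1e* gave from 10.8% in *Srsf10-kd* 2 and 11.1% in *Srsf10-kd* 3 to 33.0% in *Ctrl* 4. *Serpina1c* gave from 16.5% in *Ctrl* 4 to 35.9% in *Srsf10-kd* 3. By raw counts, which are not per length and so give no order of levels, *Serpina1c* had the most in *Srsf10-kd* 3, *Serpina1e* in *Ctrl* 4 and *Serpina1b* in the 6 others. In group means, *Serpina1e* made up 17.5% ± 7.54 in *Srsf10-kd* and 22.4% ± 7.59 in *Ctrl* (SD, n = 4), a difference smaller than either SD.

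**Figure D3:**
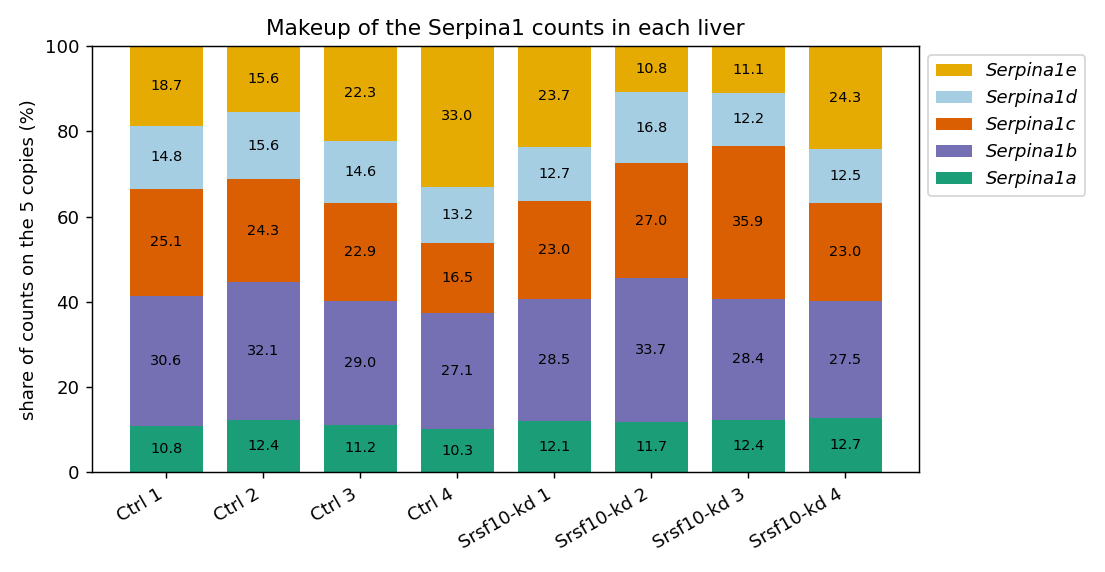
Share of the counts on the 5 *Serpina1* copies that fell on each copy (%), 1 stacked bar per liver, 4 *Ctrl* and 4 *Srsf10-kd*. The *Serpina1e* part runs from 10.8% to 33.0% and the *Serpina1c* part from 16.5% to 35.9%, while *Serpina1a* stays between 10.3% and 12.7%.

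*Serpina3k*, known as contrapsin and as a kallikrein-binding protein, made up 86.5% to 94.2% of the *Serpina3* counts. It had 8277, 5675, 11696 and 7064 CPM in *Srsf10-kd* and 9652, 5130, 9915 and 9599 CPM in *Ctrl*. Liver 2 was the lowest of each group, and in *Ctrl* it stood below 3 livers that lay between 9599 and 9915 CPM. Its log2 fold change was -0.07 (95% interval -0.67 to 0.53, adjusted p = 0.893 in edgeR).

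*Serpina3m* had 287, 374, 497 and 257 CPM in *Srsf10-kd* and 308, 346, 252 and 198 CPM in *Ctrl*. *Srsf10-kd* 3 and 2 were above every *Ctrl* liver and *Srsf10-kd* 1 and 4 were within their range. This gave a log2 fold change of 0.36 (95% interval -0.16 to 0.88, adjusted p = 0.364 in edgeR), and -0.01 with the quality weights of voom.

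*Serpina3n* inhibits granzyme B and is known as an acute-phase gene of the mouse liver. It had 777, 508, 339 and 392 CPM in *Srsf10-kd* and 453, 387, 356 and 598 CPM in *Ctrl*. *Srsf10-kd* 1 was the highest of the 8 livers and *Srsf10-kd* 3, the highest liver for 6 other members, was the lowest. Between groups it differed by 0.17 on the log2 scale (95% interval -0.42 to 0.75, adjusted p = 0.709 in edgeR), and -0.12 without *Srsf10-kd* 1. The acute-phase gene *Saa1* was also highest in *Srsf10-kd* 1, at 747 CPM, where the 7 other livers had 17.6 to 130 CPM, and *Saa2* stood at 516 CPM there. The livers did not follow the same order in both genes, since *Srsf10-kd* 3, the lowest for *Serpina3n*, came next for *Saa1* at 130 CPM, and *Ctrl* 4, with 598 CPM of *Serpina3n*, had 29.4 CPM of *Saa1*. *Orm1* and *Hp*, other acute-phase genes named after their values were seen, were highest in *Srsf10-kd* 3, at 479 and 4827 CPM. *Hp* had nearly as much, 4817 CPM, in *Srsf10-kd* 1. Also named after their values were seen, *Saa3*, *Orm2*, *Hpx*, *Apcs*, *Lcn2*, *Fga*, *Fgb*, *Fgg*, *Itih4* and *Lrg1* were highest in *Srsf10-kd* 1. *Saa4*, *Crp*, *Mt1* and *Mt2* were highest in *Srsf10-kd* 3, *Orm3* in *Srsf10-kd* 2, *Cp* in *Ctrl* 2 and *Itih3* in *Ctrl* 4.

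*Serpina6* had 81.4, 225, 130 and 129 CPM in *Srsf10-kd* and 135, 163, 106 and 82.4 CPM in *Ctrl*. Its lowest livers, *Srsf10-kd* 1 and *Ctrl* 4, were those with the highest *Serpina3n*, though *Srsf10-kd* 2, the highest for *Serpina6*, came next after them for *Serpina3n*. Between groups the log2 fold change was 0.21 (95% interval -0.45 to 0.88, adjusted p = 0.676 in edgeR), and -0.14 with the quality weights of voom.

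*Serpina3c* was barely detected, with 11 to 22 counts per liver (0.211 to 0.389 CPM). The log2 fold change was -0.04 (95% interval -0.61 to 0.54, adjusted p = 0.939 in edgeR). The sum of the *Serpina3* members was 9036 ± 2596 CPM in *Srsf10-kd* and 9299 ± 2291 CPM in *Ctrl* (SD, n = 4 each), and followed *Serpina3k*.

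The intervals give the size of difference that these livers leave possible. As folds of *Srsf10-kd* over *Ctrl* they ran from 0.782 to 1.29 for *Serpina1b* and from 0.735 to 1.17 for *Serpina1d*. They were wider for *Serpina1e*, from 0.429 to 1.37, and for *Serpina1c*, from 0.839 to 1.97. The exact two-sided permutation test over the 70 assignments of livers to groups, whose smallest p is 0.0286, gave 0.257 for *Serpina3m*, 0.400 for *Serpina1e* and 0.457 to 0.971 for the others.

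Leaving *Serpina3c* aside, the width of these intervals broadly followed the spread between livers of a group. The SD of log2 CPM within a group, pooled over both groups, was 0.20 for *Serpina1d*, 0.21 for *Serpina1b* and 0.28 for *Serpina1a*. The median of the 673 genes with a mean of at least 200 CPM was 0.21. It was 0.39 for *Serpina3m*, 0.44 for *Serpina3n* and for *Serpina1c*, 0.45 for *Serpina3k*, 0.52 for *Serpina6* and 0.68 for *Serpina1e*. The spread of *Serpina1e* was larger than that of 97.5% of those 673 genes, and it was wide in both groups, at 0.71 in *Srsf10-kd* and 0.64 in *Ctrl*. That of *Serpina1c* was 0.54 in *Srsf10-kd* and 0.32 in *Ctrl*. *Serpina3c*, with 11 to 22 counts per liver, had a pooled SD of 0.30, near that of *Serpina1a*. Its interval (-0.61 to 0.54) was wider than that of *Serpina1a* (-0.25 to 0.57).

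**Figure D4:**
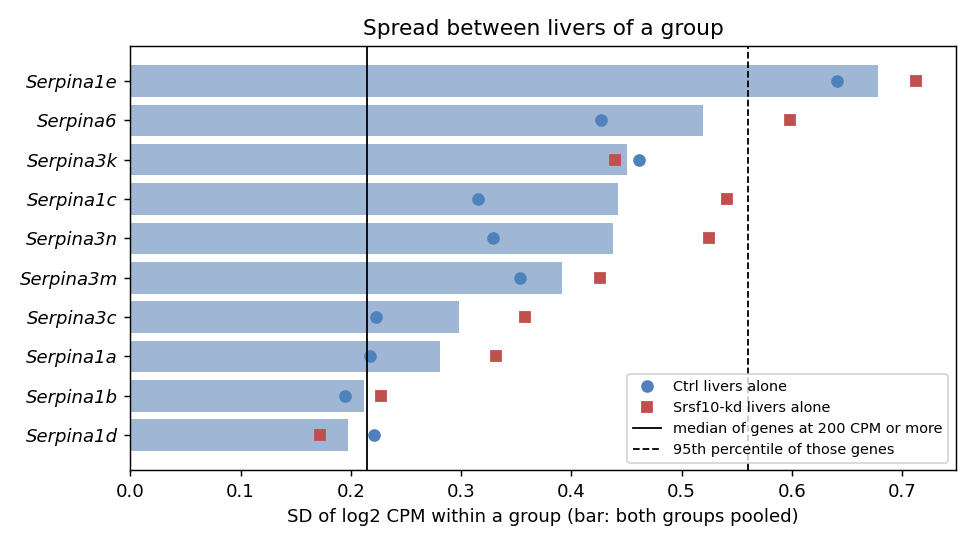
SD of log2 CPM between livers of a group for each gene (x axis), pooled over both groups (bars), in *Ctrl* alone (circles) and in *Srsf10-kd* alone (squares). Lines mark the median (0.21, solid) and 95th percentile (0.56, dashed) of the 673 genes with a mean of at least 200 CPM, and only the bar of *Serpina1e* passes the dashed line.

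The promoters of *Serpina3c* and *Serpina3n* are shown because they are nearly alike although *Serpina3n* was read at 339 to 777 CPM and *Serpina3c* at 0.211 to 0.389 CPM. RefSeq's table (GRCm38.p6) held promoters for 7 of the 10 members. The 250 bases before the gene start of *Serpina3n* and *Serpina3c* were 92.7% identical over 247 aligned bases, with capitals at the 21 bases of each that differ or have no partner.

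*Serpina3n* (chr12:104406458-104406707, plus strand): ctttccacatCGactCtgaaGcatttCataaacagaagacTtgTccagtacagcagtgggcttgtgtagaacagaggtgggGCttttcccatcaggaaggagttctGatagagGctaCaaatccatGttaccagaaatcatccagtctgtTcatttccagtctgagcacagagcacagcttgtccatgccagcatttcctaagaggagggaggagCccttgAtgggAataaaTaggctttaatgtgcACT
*Serpina3c* (chr12:104153873-104154122, minus strand): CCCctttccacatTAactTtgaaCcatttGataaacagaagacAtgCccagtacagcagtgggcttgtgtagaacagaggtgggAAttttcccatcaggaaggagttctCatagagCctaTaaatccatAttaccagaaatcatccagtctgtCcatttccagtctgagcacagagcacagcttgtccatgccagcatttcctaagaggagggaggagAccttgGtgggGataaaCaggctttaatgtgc

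The letters GTTAAT, the core of sites bound by the hepatocyte factor HNF1, were searched on both strands from 250 bases before to 50 after each start. They were in the promoters of *Serpina3c* and all 5 *Serpina1* copies but not of *Serpina3n*, and in 7.10% of 32851 promoters. The letters TTCNNNGAA, the core of a STAT site, were in 0 of the 7 and in 8.30% of all promoters. The *Serpina1* promoters were 91.6% to 97.0% identical in pairs and had in common a run of 55 bases, shown with GTTAAT in capitals because it is the longest sequence that all 5 share there. It began between 55 bases (*Serpina1d*) and 117 bases (*Serpina1e*) before the annotated starts.

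Run shared by the *Serpina1* promoters: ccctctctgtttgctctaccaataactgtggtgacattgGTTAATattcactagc

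The other genes of clade A were read as neighbours and relatives. Of 15 listed, 8 passed the filter on low counts, 0 passed an adjusted p of 0.05, and their median log2 fold change was 0.13. *Serpina10*, the protein Z-dependent protease inhibitor, was steady at 129 to 175 CPM. *Serpina7*, thyroxine-binding globulin, ranged from 8.87 CPM in *Ctrl* 4 to 63.8 CPM in *Srsf10-kd* 3, and *Serpina12*, vaspin, from 17.9 CPM in *Ctrl* 4 to 116 CPM in *Srsf10-kd* 3. Both were thus at their lowest and highest in the livers where *Serpina1c* was. *Serpina11* had 19.6 to 38.5 CPM, *Serpina3g* 6.38 to 13.8 CPM and *Serpina3f* 2.41 to 6.0 CPM. *Serpina3i*, at 8 to 19 counts per liver, had the smallest p of the list (log2 fold change 0.66, adjusted p = 0.192 in edgeR). *Serpina1f* and *Serpina16* had 0 counts in every library.

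Of serpins of other clades 15 of 15 were tested and 0 passed (median 0.05). *Serpini1*, neuroserpin, had a log2 fold change of 0.63 (adjusted p = 0.172 in edgeR) and *Serpinb1a*, an inhibitor of neutrophil proteases, 0.44 (adjusted p = 0.444). Of 15 proteases that serpins of these families can meet, 10 were tested and 0 passed (median 0.00). The smallest p-values were those of *Try4*, a trypsin, at 3.28 (adjusted p = 0.146), *F11*, coagulation factor XI, at -0.36 (adjusted p = 0.168), and *Klk1*, tissue kallikrein, at 2.0 (adjusted p = 0.183). *Try4* and *Klk1* were highest in *Srsf10-kd* 2, at 19.4 and 3.65 CPM, the liver that was also highest in acinar pancreas markers.

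Of the acute phase and IL6-STAT3 list 29 of 29 genes were tested, 0 passed in edgeR, and the median was 0.13. DESeq2 called 2 of them higher, *Saa1* and *Saa2*, and 1 lower, *Il6st*, the signal-transducing receptor of the IL6 family. *Il6st* had 104, 99.4, 64.0 and 99.2 CPM in *Srsf10-kd* and 152, 148, 128 and 161 CPM in *Ctrl*, with no overlap (log2 fold change -0.68, adjusted p = 0.115 in edgeR). Of 14 transcription factors of hepatocytes 0 passed in edgeR (median 0.02) and DESeq2 called 2 higher, *Cebpb* at 0.71 and *Cebpd* at 0.46 by edgeR's log2 fold change (adjusted p = 0.119 and 0.132 in edgeR). *Hnf4a*, a nuclear receptor of hepatocytes, had -0.50 (adjusted p = 0.155).

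The glucocorticoid list, chosen for *Serpina6*, had 14 of 15 genes tested and 0 passed in edgeR (median 0.01). *Dusp1*, *Tsc22d3* and *Sgk1*, all known targets of the glucocorticoid receptor, had the smallest p-values, with log2 fold changes of 0.52, 0.64 and 0.38 (adjusted p = 0.129, 0.164 and 0.198 in edgeR), and DESeq2 called *Dusp1* alone. The list went both ways, with 7 genes above 0 and 7 below, and voom with quality weights called 1 higher, *Dusp1*, and 2 lower. Those lower were *Fkbp5*, another receptor target, at -0.82 (adjusted p = 0.0352 in voom) and *Nr3c1*, the receptor itself, at -0.32 (adjusted p = 0.0385 in voom), both named after their values were seen. Of the growth hormone and STAT5 list 11 of 11 were tested and 0 passed in edgeR or DESeq2 (median -0.08). *Socs2* had 1.56, *Bcl6* -1.23 and *Jak2* -0.15 (adjusted p = 0.195, 0.227 and 0.422 in edgeR).

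Secreted serpins pass through the endoplasmic reticulum, and of 24 genes of its export and quality control 24 were tested and 0 passed in edgeR (median -0.12, with 16 below 0). *Lman1*, a cargo receptor known to carry alpha-1-antitrypsin out of the endoplasmic reticulum, came nearest. It had 193, 183, 176 and 178 CPM in *Srsf10-kd* and 243, 260, 274 and 245 CPM in *Ctrl*, without overlap. Its log2 fold change was -0.48 (95% interval -0.70 to -0.27, adjusted p = 0.0935 in edgeR), and it was called by DESeq2 (adjusted p = 8.71e-06) and without *Ctrl* 3 in edgeR (adjusted p = 0.0480), while its adjusted p was 0.195 after the length correction. *Uggt1*, which checks the folding of glycoproteins, had -0.50, and *Sec24d*, a subunit of the coat of export vesicles, -0.48 (adjusted p = 0.133 and 0.151 in edgeR).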

How the data were processed

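Poly(A) RNA of 8 livers was sequenced as directional paired-end libraries. The authors aligned the reads with STAR 2.7.7a to GRCm38 (both per the submitters' processing notes) and deposited the resulting gene counts as they were, not normalized. The annotation release and the strand column are not given in the sources used here. The deposited counts hold 8 columns, 1 per liver by its label.

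Counts were scaled by TMM and tested in edgeR 4.0.16 (R 4.3.3) with filterByExpr, a quasi-likelihood fit on condition and Benjamini-Hochberg adjusted p under 0.05, two-sided, over 15491 genes. The 95% intervals use the fit's standard errors. Log2 levels used a prior count of 2. The alternatives were DESeq2 1.42.0 (the study's tool), limma 3.58.1 voom with quality weights, other scalings and filters, the replicate number as a block, an offset removing each library's lowess trend (span 0.5) on transcript length, and each liver left out in turn. Nothing states that same-numbered livers belong together, and their deviations from the group means correlated at -0.18, 0.21, 0.27 and 0.22, so numbers were not taken as pairs. Nothing states more about replicates than that they are separate livers. With no set test, lists are described by counts and medians. The scripts were tested on simulated data. The members and lists were chosen with earlier results of these data known. Named are all members, *Srsf10*, clade A genes over 1 CPM, and up to 3 genes of each pathway list by smallest p, of which 1 is not reported here.

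Coding windows were read from GENCODE M21 transcripts, found by the conserved residues around the loop in the longest open reading frame. For each gene the shortest transcript with an open reading frame of over 300 codons was used. Identities came from global alignments in Biopython 1.88. *Klkb1* and *Tf* had no matching identifier and were not analysed here.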

Additional observations from a re-analysis of the deposited data

Results flagged for a closer look

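Among 4 livers, a value was looked at again if its gap to the nearest liver was too large a part of the group's range by Dixon's 95% limit, which chance alone passes in about 1 of 20 groups. Of 24 groups examined (10 genes and 2 sums in both conditions), 4 did. *Serpina1c* in *Srsf10-kd* 3 stood at 7640 CPM, where the 3 others had 3441 to 3763 CPM. *Serpina1a* in *Ctrl* 3 stood at 2255 CPM, where the others had 1643 to 1728 CPM. *Serpina3k* in *Ctrl* 2 stood at 5130 CPM, below 9599 to 9915 CPM in the others. The sum of the 4 *Serpina3* members, which is mostly *Serpina3k*, was 5863 CPM in *Ctrl* 2, where the others had 10395 to 10523 CPM.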

How the results depend on the processing

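No member passed an adjusted p of 0.05 in any of 160 alternative fits (16 for each of 10 members, lowest adjusted p 0.237), and 138 kept the sign of the log2 fold change. Voom with quality weights turned the sign of *Serpina1e* (0.12), *Serpina3k* (0.014), *Serpina3m* (-0.0083), *Serpina6* (-0.14) and *Serpina1b* (-0.0030). *Serpina1b*, near 0 throughout, also turned with DESeq2 (-0.0054), library size alone (-0.0069) and no filter (-0.0035). The length correction turned *Serpina1a* (-0.031) and *Serpina1b* (-0.15). Leaving out 1 liver in turn gave log2 fold changes of -0.12 to 0.11 for *Serpina1b*, -0.19 to 0.011 for *Serpina1d*, -0.13 to 0.12 for *Serpina3c*, -0.29 to 0.071 for *Serpina3k*, -0.12 to 0.34 for *Serpina3n* and -0.11 to 0.40 for *Serpina6*. The replicate number as a block gave 0.30 for *Serpina1c* (adjusted p = 0.256 in edgeR), 0.34 for *Serpina3m* (adjusted p = 0.247) and -0.40 for *Serpina1e* (adjusted p = 0.270), and changed no call on a member or list. The cause of these shifts was not tested.

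Over all genes, 11 were called, and 824 by DESeq2, 1814 by voom with quality weights, 46 without a filter, 59 with the replicate block, and 0 to 544 with 1 liver left out, the most without *Ctrl* 3. Where edgeR called 0, DESeq2 and voom called 3 and 2 of 29 genes of the acute phase list and 2 and 5 of 14 hepatocyte transcription factors. They called 1 and 3 of 14 genes of the glucocorticoid list and 2 and 4 of 24 of the secretory list. Beside this, DESeq2 called 5.27% of the genes it tested and voom 1814 of 15491. With 1 liver left out, an alternative added after the data were seen, edgeR called 0 to 1 of the glucocorticoid list and 0 to 2 of the secretory list, each more than 0 only without *Ctrl* 3. Per kb of unshared stretches in place of the longest transcript, levels moved by more than the SD between livers for *Serpina1c* (12105 CPM per kb), *Serpina1d* (2758) and *Serpina1a* (2086).

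With 4 livers a group, differences inside the stated intervals remain possible, and *Serpina3c* rests on 11 to 22 counts per liver. Reads common to *Serpina1* copies are left out of the counts, and no length scale restores them.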
